A study of Mus musculus with 8 samples.

Results

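The 32 genes described here encode the regulators, enzymes and acyltransferases that make fatty acids, lengthen and desaturate them, activate them to acyl-CoA and place them in glycerolipids and phospholipids. They are a list of names whose rule uses no measured value, although it was drawn up with earlier results of these data known. They were taken out of 48795 genes in each deposited table, and all 32 were found by matching Ensembl gene identifiers to symbols. RNA was sequenced from peritoneal macrophages (pMacs) of 4 WT C57BL/6 mice and 4 CD1d-KO mice, 1 library per mouse, with no stimulus named in the labels. CD1d is a lipid antigen-presenting molecule, and the comparison asks how its absence from the whole animal, which also leaves the mice without natural killer T cells, changes the pMac transcriptome. Per the study's methods the CD1d-KO mice carried B6.129S6-Del(3Cd1d2-Cd1d1)1Sbp/J or were CD1d flox crossed to PGK Cre, with the line of each mouse not given. The mice were age- and sex-matched and called littermates. The study used males and females and states an age range for its experiments as a whole, with no age given per mouse. Libraries carry the replicate numbers 1, 2, 3 and 5 in both genotypes.

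De novo fatty acid synthesis starts from citrate that leaves the mitochondrion. ATP citrate lyase makes acetyl-CoA from it, acetyl-CoA carboxylase makes malonyl-CoA, and fatty acid synthase builds palmitate with NADPH. Elongases and desaturases then set chain length and double bonds, acyl-CoA synthetases activate free fatty acids, and acyltransferases place them in membrane and storage lipids. SREBP-1, encoded by Srebf1, drives many of these genes, while SREBP-2 chiefly drives cholesterol synthesis. In macrophages the pathway supplies membrane phospholipids and the polyunsaturated acyl chains from which lipid mediators are made.

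Total expected counts per library ranged from 13698864 to 19059432. Cd1d1, the deleted gene, had normalized counts of 67.6, 174, 95.4 and 140 in WT 1, 2, 3 and 5, against 60.1, 1.13, 0 and 1.09 in the libraries labelled CD1d-KO 1, 2, 3 and 5. The library labelled CD1d-KO 1 therefore went against its label, so results are also given without replicate 1. The 5 macrophage markers (Adgre1, Csf1r, Itgam, Cd68, Lyz2) summed to 337443 to 377560 normalized counts in WT and 279260 to 358295 in CD1d-KO. The 5 B cell markers summed to 2684 to 7230 in WT and 1749 to 12082 in CD1d-KO. The 6 markers of small peritoneal macrophages and dendritic cells were H2-Ab1, Cd74, Ccr2, Irf4, Cd226 and Itgax. They summed to 11822 to 24344 in WT and 8057 to 30384 in CD1d-KO. Both of these sums were lowest in CD1d-KO 2 and highest in CD1d-KO 5. Which cells held the transcripts of either list was not tested. Of the 6 markers, 1 had an unadjusted p under 0.05 (edgeR). Of the 6 adipocyte markers, Adipoq, Cidec and Lep were at 0 in every library and no marker exceeded 6 expected counts in any library. Of the 4 neutrophil markers only S100a8 reached the count filter, and it had an unadjusted p under 0.05 (edgeR). The sum of the 4 was 44.1 to 51.2 in WT and 80.3 to 90.4 in CD1d-KO, without overlap of the groups. Of the 6 large peritoneal macrophage markers, Timd4 (log2 fold change 0.38 ± 0.11, adjusted p = 0.201) and Garnl3 (0.65 ± 0.18, adjusted p = 0.195, without overlap of the groups) were higher in all 4 pairs with an unadjusted p under 0.05 (edgeR). Gata6, Fn1 and Alox15 were at -0.09, -0.11 and -0.12, and Icam2 was at 0.36 ± 0.16. The part of these cell types in the results was not tested. In bulk RNA, fewer cells of a type and less RNA per cell cannot be told apart.

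Promoter letters were read first, because SREBP and the nuclear factor Y family, which binds CCAAT, are classical regulators of this pathway. The RefSeq table of promoter windows (GRCm38.p6, 250 bases before to 50 bases after a start site) held a window for 28 of the 32 genes, 38 windows in all, and had no entry for Elovl3, Scd1, Scd2 and Fads1. On both strands, the sterol regulatory element letters TCACNCCAC were found in 2 of the 38 windows, those of Acsl1 and Mlxipl, and in 1.24% of all 32851 windows. CCAAT was found in 19 of 38 windows and in 37.4% of all windows, and the E-box CACGTG in 3 of 38 windows, in Elovl5, Lpin2 and Mlxipl, and in 7.15% of all windows. The 250 bases before the start site are printed for 3 of the genes whose values the results turn on, 5′ to 3′ on the gene's strand, with CCAAT or TCACNCCAC on either strand in capitals. They are the synthase gene Fasn (chr11:120824548-120824797, minus strand), the phosphatase gene Lpin1 (chr12:16610967-16611216, minus strand) and the synthetase gene Acsl1 (chr8:46490716-46490965, plus strand, 1 of 2 windows of that gene). The Acsl1 window was picked because it holds TCACNCCAC, and it lies inside the gene, which is annotated from 46471037.
Fasn: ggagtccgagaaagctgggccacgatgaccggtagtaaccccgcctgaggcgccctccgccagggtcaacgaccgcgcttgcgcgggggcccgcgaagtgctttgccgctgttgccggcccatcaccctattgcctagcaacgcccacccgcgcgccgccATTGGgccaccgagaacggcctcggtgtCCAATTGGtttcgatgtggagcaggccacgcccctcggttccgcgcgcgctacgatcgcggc
Lpin1: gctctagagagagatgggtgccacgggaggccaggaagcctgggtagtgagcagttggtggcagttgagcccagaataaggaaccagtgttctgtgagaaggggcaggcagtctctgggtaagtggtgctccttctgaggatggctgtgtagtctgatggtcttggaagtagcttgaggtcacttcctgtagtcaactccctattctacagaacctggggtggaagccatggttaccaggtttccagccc
Acsl1: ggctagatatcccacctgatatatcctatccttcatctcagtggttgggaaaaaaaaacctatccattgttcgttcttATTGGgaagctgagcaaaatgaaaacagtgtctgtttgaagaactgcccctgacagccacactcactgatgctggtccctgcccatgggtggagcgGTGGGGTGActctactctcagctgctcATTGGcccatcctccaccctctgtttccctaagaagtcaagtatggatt
In Fasn the first bases of the CCAAT matches lie at -90, -62 and -59 from the start site, and the matches at -62 and -59 overlap. In Acsl1 the capitals mark TCACNCCAC on the reverse strand from -76 and CCAAT on the reverse strand from -172 and -49. The Lpin1 window held neither motif. A match of letters is a description and not a bound site.

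The pMacs expressed most of the pathway. Shares within an enzyme family are taken over the genes compared here, so the lipin shares leave out Lpin3. Levels are compared between genes in TPM, which is per length. Acaca, which encodes the cytosolic acetyl-CoA carboxylase, was the highest member at 120 ± 19.3 TPM in WT and 134 ± 23.4 TPM in CD1d-KO (SD, n = 4), rank 900 among all genes. It held 99.9% of the acetyl-CoA carboxylase TPM in both genotypes. Its mitochondrial-surface paralog Acacb, whose malonyl-CoA restrains fatty acid oxidation, was nearly absent at means of 0.0575 and 0.0825 TPM.

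Elovl1, the elongase of saturated and monounsaturated very long chains, held 79.8% of the TPM of the 5 elongase genes in WT and 77.6% in CD1d-KO. Elovl5, which lengthens polyunsaturated chains, held 19.7% and 22.2%. Elovl6, which takes palmitate to stearate, was at 0.568 TPM in WT and 0.0825 TPM in CD1d-KO, Elovl3 was at 0.145 and 0.175 TPM, and Elovl7 was at 0.015 and 0.0325 TPM. Among the front-end desaturases Fads1, the delta-5 desaturase, held 90.8% and 91.1%, and Fads2, the delta-6 desaturase that precedes it in polyunsaturated fatty acid synthesis, held 2.99% and 3.08%. Scd1 held 69.2% of the stearoyl-CoA desaturase TPM in WT and 78.1% in CD1d-KO, and Scd2 held 30.1% and 21.7%. The ranges of the Scd1 and Scd2 shares overlapped between the genotypes.

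Among the acyl-CoA synthetases Acsl4, which prefers arachidonate, led with 45.8% of the family TPM in WT and 40.2% in CD1d-KO, ahead of Acsl5 with 33.0% and 35.0% and Acsl1 with 18.0% and 22.5%. Lpcat2, which reacylates lysophosphatidylcholine and makes platelet-activating factor, held 63.3% and 65.8% of its family, and Lpcat3, which places polyunsaturated chains in phosphatidylcholine, held 30.9% and 28.7%. Lpin2 held 73.2% and 84.1% of the phosphatidate phosphatase TPM of the 2 lipin genes. TPM and counts need not move alike, since RSEM sets a gene's length from its isoforms.

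**Figure D1:**
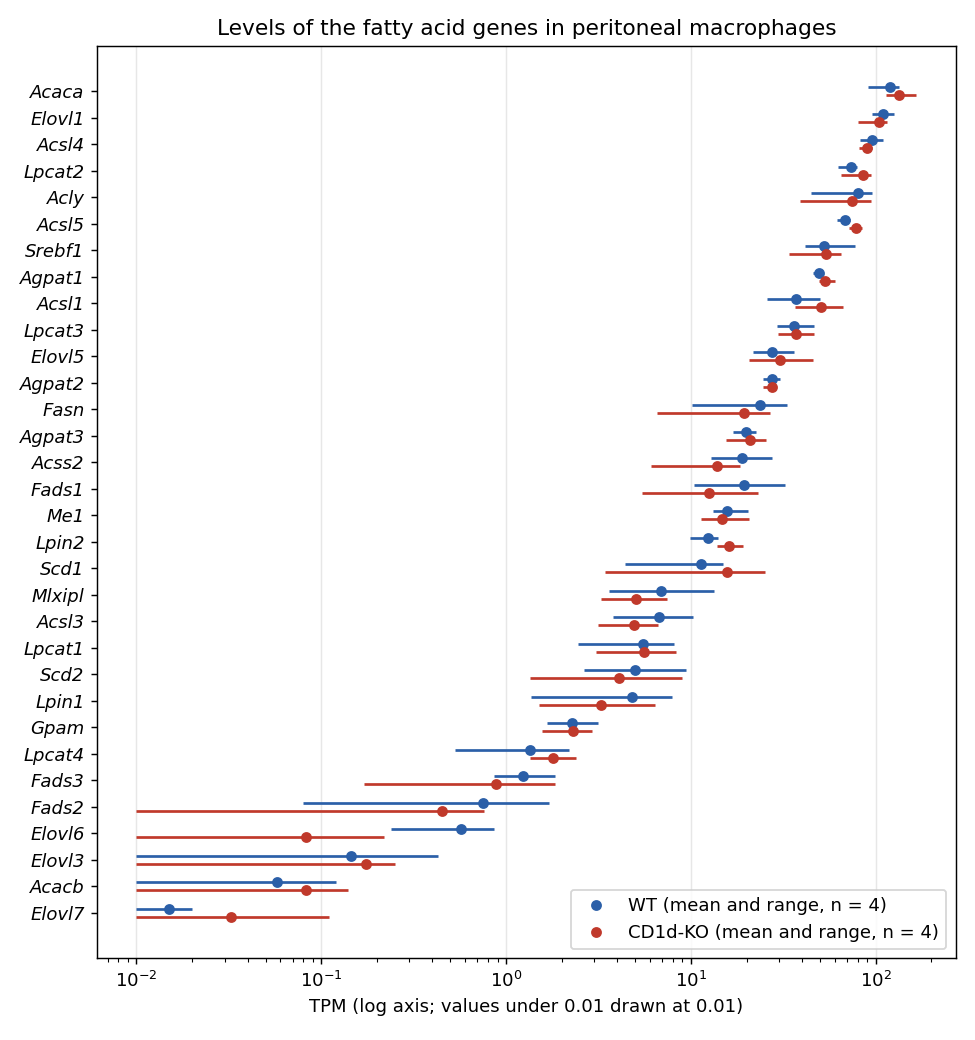
TPM (log axis) of the 32 fatty acid genes, blue for WT and red for CD1d-KO, with the mean as a point and the lowest to highest of 4 libraries as a line. Acaca and Elovl1 stand at the top with means above 100 TPM, and Fads2, Elovl6, Elovl3, Acacb and Elovl7 stand below 1 TPM in both groups.

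Of the 32 genes, 27 reached 10 counts in at least 4 libraries and were tested, and Acacb, Elovl3, Elovl6, Elovl7 and Fads2 were not. Genes were tested with edgeR's quasi-likelihood test with the replicate number as a block, with p-values adjusted by Benjamini-Hochberg over all 13253 genes tested. The study applied its thresholds (adjusted p under 0.01 and fold change above 1.5) to DESeq2. Applied to this edgeR fit, they called 0 members, against 5 of all genes tested (0.0377%). At an adjusted p under 0.05 the only member was Fads1, lower in CD1d-KO, beside 0.158% of all genes called lower, and 0 members were higher, beside 0.309% of all genes. At an unadjusted p under 0.05, 7 of 27 members passed (25.9%), against 12.3% of all genes. Of these 7, Fads1, Fasn, Scd2 and Lpin1 were lower and Acsl1, Acsl5 and Lpin2 were higher, against backgrounds of 5.04% lower and 7.26% higher. DESeq2 called 1 member, Fads1, by the study's thresholds, against 112 of all genes (1.02%).

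Members lay on both sides of 0. The log2 fold changes were below 0 for 16 of 27 genes (49.1% of all genes) and above 0 for 11, and their median was -0.035 beside 0.004 over all genes. The groups overlapped for each of the 27 genes, whereas 0.928% of all genes were lower and 1.05% higher without overlap. All 4 pairs were lower in CD1d-KO for Scd2, Fads1 and Lpcat3 (10% of all genes) and higher for Acsl5 and Lpin2 (10.6%). For all 27 members the spread between the 4 pair means was larger than the size of the genotype difference, with medians of 0.57 and 0.18 on the log2 scale. The same was true of 12413 of all 13253 genes tested, with medians of 0.48 and 0.12. Replicate 3 had the lowest pair mean for 14 of the 27 genes, beside 35.5% of all genes. Without replicate 1, 4 members were lower and 1 was higher at an unadjusted p under 0.05, with 9.23% of all genes passing in either direction. Fitted without the replicate block, 0 members reached an unadjusted p under 0.05 with edgeR, against 2.83% of all genes. Of the 7 members, Fads1 and Fasn kept an unadjusted p under 0.05 in each of the 4 fits that left out 1 replicate, and Scd2, Lpin1, Acsl1, Acsl5 and Lpin2 lost it in at least 1 of them.

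**Figure D2:**
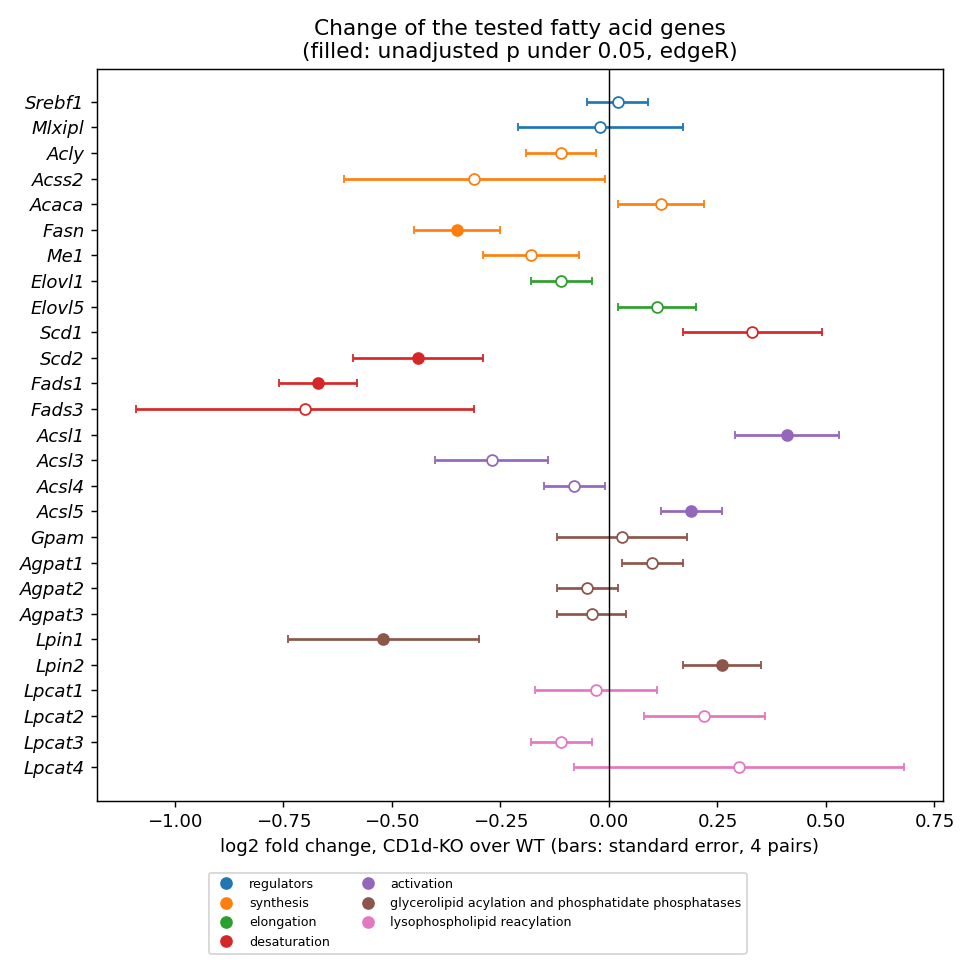
Log2 fold change of CD1d-KO over WT for the 27 tested genes in order of role (colors). Bars are the standard errors of the edgeR fit, taken from its F statistic, and not the spread of the 4 pair values. Points are filled where the unadjusted p was under 0.05. The 4 filled points to the left of 0 are Fasn, Scd2, Fads1 and Lpin1, and the 3 to the right are Acsl1, Acsl5 and Lpin2.

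The transcript of the lipogenic regulator SREBP-1 did not pass the test. Srebf1 had normalized counts of 1460, 1287, 1012 and 1286 in WT 1, 2, 3 and 5 and 1380, 1320, 1111 and 1272 in CD1d-KO 1, 2, 3 and 5. The CD1d-KO values lay within the WT range, with 2 pairs lower and 2 higher, and the log2 fold change was 0.02 ± 0.07 (SE, adjusted p = 0.949). Mlxipl, which encodes the glucose-responsive factor ChREBP, had a log2 fold change of -0.02 ± 0.19 (adjusted p = 0.978), which was 0.21 ± 0.18 without replicate 1.

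In the synthesis group, Fasn had the smallest p and the entry enzymes did not pass. Acly, ATP citrate lyase, had 2924, 3273, 1713 and 3290 normalized counts in WT and 3034, 3050, 1607 and 2705 in CD1d-KO. Replicate 3 was the lowest of both groups, the groups overlapped, and the log2 fold change was -0.11 ± 0.08 (adjusted p = 0.638). Acaca had 8547, 9967, 8111 and 9941 in WT and 9114, 12469, 9944 and 8531 in CD1d-KO. Of its 4 pairs 3 were higher in CD1d-KO, with a log2 fold change of 0.12 ± 0.10 (adjusted p = 0.699).

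Fasn, the fatty acid synthase, had 1944, 1556, 631 and 1676 normalized counts in WT and 1446, 1573, 467 and 1121 in CD1d-KO. Replicate 3 was low in both groups, 3 of 4 pairs were lower in CD1d-KO and pair 2 was nearly level. The log2 fold change was -0.35 ± 0.10, with an unadjusted p of 0.00853 from edgeR and an adjusted p of 0.213. It was -0.33 ± 0.12 without replicate 1. Me1, which supplies NADPH, and Acss2, which makes acetyl-CoA from acetate, had log2 fold changes of -0.18 ± 0.11 and -0.31 ± 0.30, neither past the test. The value of Acss2 rested on replicate 3, without which it was 0.08 ± 0.19.

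Elongation did not pass the test for either tested elongase. Elovl1 had 1499, 1553, 1246 and 1582 normalized counts in WT and 1326, 1590, 1170 and 1364 in CD1d-KO. The ranges overlapped, 3 of 4 pairs were lower in CD1d-KO, and the log2 fold change was -0.11 ± 0.07 (adjusted p = 0.566). Elovl5 was at 0.11 ± 0.09 (adjusted p = 0.688). Elovl6, below the count filter, had 11.9, 8.53, 4.77 and 10.4 normalized counts in WT and 11.3, 0, 0 and 3.27 in CD1d-KO. These counts overlapped, while its TPM ranges, 0.24 to 0.86 in WT and 0 to 0.22 in CD1d-KO, did not.

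The desaturases held Fads1, the only member under an adjusted p of 0.05 in the edgeR fit reported. Fads1 (chr19:10182888-10196877, plus strand), the delta-5 desaturase that completes arachidonate and eicosapentaenoate, had 927, 509, 366 and 683 normalized counts in WT and 687, 315, 204 and 403 in CD1d-KO. Every CD1d-KO library was below the WT library of its number, although the ranges of the groups overlapped because replicate 1 was high and replicate 3 low in both. The log2 ratios of the 4 pairs were -0.43, -0.69, -0.85 and -0.76 in the order 1, 2, 3 and 5, and pair 1, whose CD1d-KO library went against its label, was the smallest. Fads1 was 1.59-fold lower (log2 fold change -0.67 ± 0.09, unadjusted p = 7.86e-05 from edgeR, adjusted p = 0.0359). Without replicate 1 the log2 fold change was -0.76 ± 0.10 and the adjusted p 0.0589, so the call at 0.05 was lost while the size was larger. The call was also lost without replicate 3 (adjusted p = 0.176) and without replicate 5 (0.193), and it was kept without replicate 2 (0.0428). Over all genes, 62 passed an adjusted p of 0.05 with every replicate. Without replicates 1, 3 and 5 in turn, 11, 3 and 4 passed, and 167 did without replicate 2. Fitted without the replicate block, the log2 fold change was -0.62 ± 0.38 (adjusted p = 0.998).

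Fads2 and Fads3 lie next to Fads1 on chromosome 19. Fads2 (chr19:10062765-10101746) had at most 20.8 normalized counts and was not tested. Fads3 (chr19:10041569-10060110) had 50.5, 34.1, 28.6 and 39.7 in WT and 51.1, 32.9, 5.82 and 16.3 in CD1d-KO. Its log2 fold change was -0.70 ± 0.39 (adjusted p = 0.521). Pairs 1 and 2 were level, and the value was -0.38 ± 0.34 without replicate 3 and -1.02 ± 0.44 without replicate 1.

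**Figure D3:**
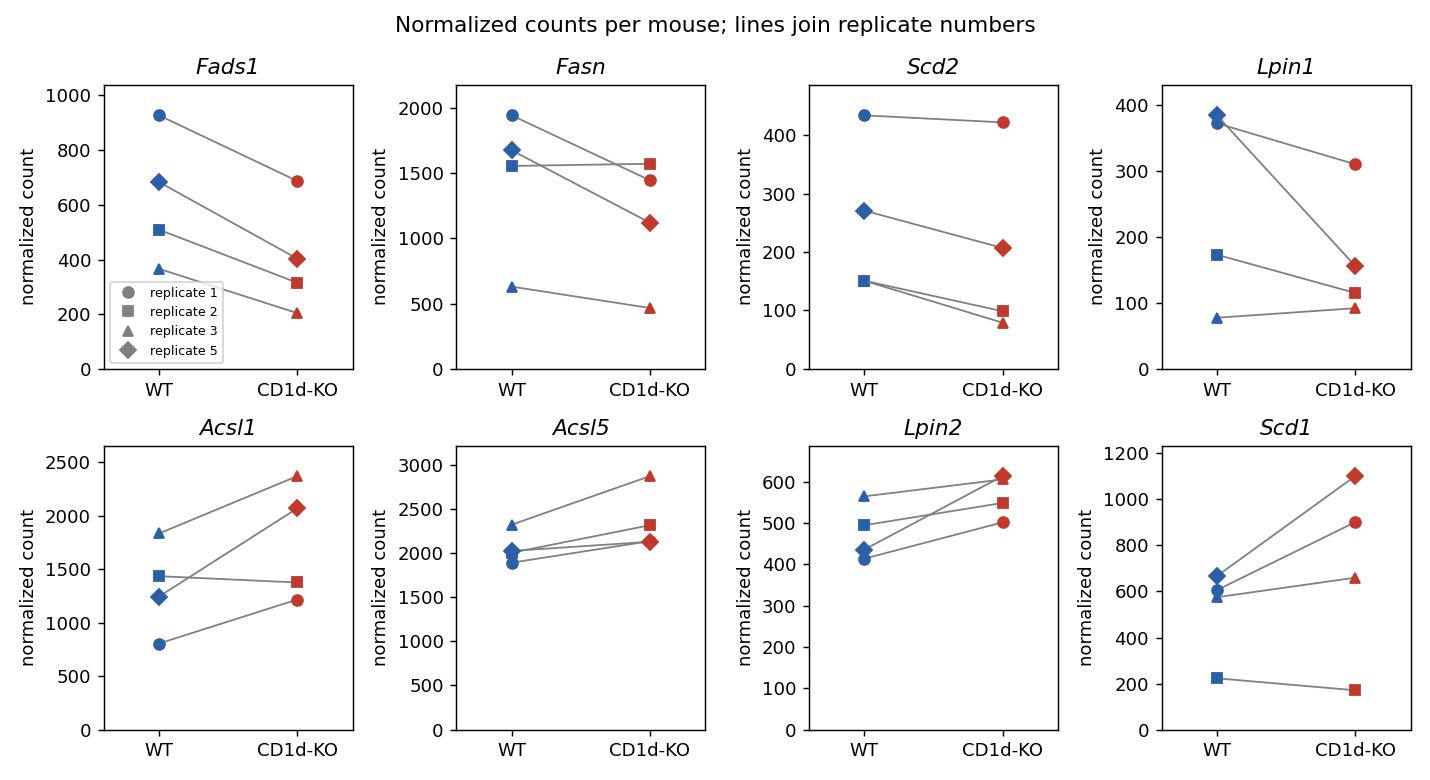
Normalized counts per mouse of 8 fatty acid genes, blue for WT and red for CD1d-KO, with lines joining the same replicate number and a different symbol for each number. All 4 lines go down for Fads1 and Scd2 and up for Acsl5 and Lpin2, and 3 of 4 lines go down for Fasn and Lpin1 and up for Acsl1 and Scd1.

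The stearoyl-CoA desaturases, which put the first double bond into saturated chains, had opposite signs. Scd2 (chr19:44293674-44306864, plus strand) had 434, 151, 151 and 271 normalized counts in WT and 422, 98.7, 79.1 and 207 in CD1d-KO. All 4 pairs were lower in CD1d-KO, pair 1 only slightly, and the log2 fold change was -0.44 ± 0.15 (unadjusted p = 0.0176 from edgeR, adjusted p = 0.270), or -0.63 ± 0.16 without replicate 1. Scd1 (chr19:44394455-44407879, minus strand) had 606, 223, 575 and 667 in WT and 901, 171, 660 and 1101 in CD1d-KO. Of its pairs 3 were higher in CD1d-KO and pair 2, the lowest of both groups, was lower, with a log2 fold change of 0.33 ± 0.16 (adjusted p = 0.459), or 0.23 ± 0.19 without replicate 1. Counts of both genes were not whole in any of the 8 libraries, so RSEM split some of their reads with other sequences. Which sequences shared these reads was not examined, so the division between Scd1 and Scd2 may be uncertain. Counts that were not whole also occurred in 7 or 8 libraries for Acss2, Me1, Acsl1, Acsl3, Agpat1, Lpcat2 and Lpcat3, and in no library for Fads1, Fasn, Acsl5, Lpin1 or Lpin2.

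The ratio of Scd2 to Scd1 counts, chosen after the values were seen and given with no test, was 0.717, 0.679, 0.263 and 0.406 in WT and 0.468, 0.576, 0.120 and 0.188 in CD1d-KO. It was lower in CD1d-KO in all 4 pairs, and the ranges of the groups overlapped. The ratios of Lpin1 to Lpin2 and of Acsl3 to Acsl1, looked at in the same way, were each lower in 3 of 4 pairs.

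Scd1 is set beside the B cell markers because their orders over the libraries were alike, a comparison chosen after the values of all 27 members were seen. The summed normalized counts of Cd79a, Cd79b, Ms4a1, Ighm and Pax5 were 6485, 2684, 5811 and 7230 in WT and 7843, 1749, 4977 and 12082 in CD1d-KO. Replicate 2 was lowest in both groups for Scd1 and for the markers, and the library labelled CD1d-KO 5 was highest for both, so only CD1d-KO 3 broke the common order, by 2 places. Agpat3 and Lpcat1 likewise differed from the marker order by at most 2 places. None of the 5 markers had an unadjusted p under 0.05 (edgeR). With the log2 marker sum added to the edgeR fit, a choice made after seeing the data, the log2 fold change of Scd1 was 0.26 ± 0.08 (unadjusted p = 0.0169, adjusted p = 0.240). That of Fads1 was -0.67 ± 0.09 (unadjusted p = 0.000178, adjusted p = 0.0368). In that fit 12.9% of all genes had an unadjusted p under 0.05, and 144 passed an adjusted p of 0.05, beside 62 without the marker sum. The marker sum was chosen as a covariate because its order over the libraries was like that of Scd1. This fit is therefore not a separate test of Scd1. Which cells held the Scd1 transcript was not tested.

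**Figure D4:**
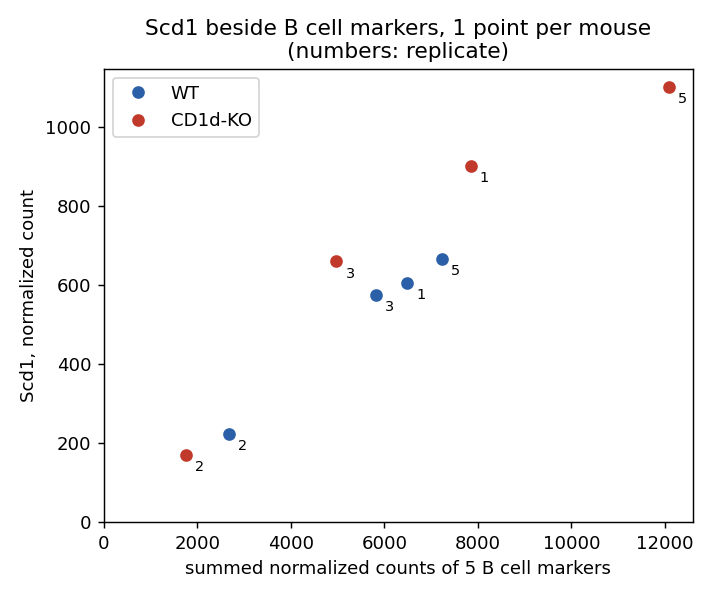
Normalized count of Scd1 against the summed normalized counts of 5 B cell markers, 1 point per mouse (WT blue, CD1d-KO red, numbers giving the replicate). Both replicate 2 libraries sit at the lower left, at 1749 and 2684 marker counts, and CD1d-KO 5 sits at the upper right, at 12082.

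Among the acyl-CoA synthetases, the genes with the smallest p were higher in CD1d-KO. Acsl1, the synthetase induced in inflammatory macrophages, had 805, 1434, 1833 and 1244 normalized counts in WT and 1216, 1375, 2369 and 2068 in CD1d-KO. Of its 4 pairs 3 were higher and pair 2 was slightly lower, with overlapping groups. Its log2 fold change was 0.41 ± 0.12 (unadjusted p = 0.0114 from edgeR, adjusted p = 0.234) and 0.35 ± 0.14 without replicate 1. Acsl5 had 1890, 2003, 2320 and 2023 in WT and 2134, 2314, 2870 and 2127 in CD1d-KO. All 4 pairs were higher, pair 5 the least, with a log2 fold change of 0.19 ± 0.07 (unadjusted p = 0.0245 from edgeR, adjusted p = 0.316). Without replicate 1 the value of Acsl5 was 0.19 ± 0.09 and the unadjusted p from edgeR 0.0581.

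Acsl4, the highest synthetase, had 4591, 4505, 5146 and 3936 in WT and 4048, 4545, 4916 and 3677 in CD1d-KO. The groups covered nearly the same range, with a log2 fold change of -0.08 ± 0.07 (adjusted p = 0.691). Acsl3, an endoplasmic reticulum and lipid droplet synthetase, was at -0.27 ± 0.13 (adjusted p = 0.454).

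In the glycerolipid group the 2 phosphatidate phosphatases, which make diacylglycerol, had opposite signs, and the acyltransferases before them had small differences. Lpin1 had 372, 173, 77.5 and 384 normalized counts in WT and 310, 115, 91.9 and 156 in CD1d-KO. The spread within each group was wide, 3 of 4 pairs were lower and pair 3 was higher, with a log2 fold change of -0.52 ± 0.22 (unadjusted p = 0.0436 from edgeR, adjusted p = 0.387). Lpin2 had 414, 495, 565 and 436 in WT and 502, 549, 606 and 614 in CD1d-KO. All 4 pairs were higher, with a log2 fold change of 0.26 ± 0.09 (unadjusted p = 0.0182 from edgeR, adjusted p = 0.276). Without replicate 5 the log2 fold change of Lpin1 was -0.23 ± 0.17 (unadjusted p = 0.219 from edgeR), so its size rested on that pair. Without replicate 1 the unadjusted p from edgeR was 0.0493 for Lpin1 and 0.0581 for Lpin2. Gpam, which starts glycerolipid synthesis at the mitochondrion, and Agpat1, Agpat2 and Agpat3, which add the second acyl chain, had log2 fold changes between -0.05 and 0.10.

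The lysophospholipid acyltransferases, which remodel the acyl chains of phospholipids, did not pass the test. Lpcat2 had 1202, 1922, 1921 and 1741 normalized counts in WT and 1935, 1599, 2330 and 1964 in CD1d-KO. Of its pairs 3 were higher and pair 2 lower, with a log2 fold change of 0.22 ± 0.14 (adjusted p = 0.574). Leaving out replicate 1 moved this value to 0.06 ± 0.12. Lpcat3 was lower in all 4 pairs by a small amount, -0.11 ± 0.07 (adjusted p = 0.626), and Lpcat1 and Lpcat4 were at -0.03 ± 0.14 and 0.30 ± 0.38.

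A further 65 genes of the same pathway (partners, regulators and substrate suppliers) held 50 tested genes. Of these, 8 were lower and 3 higher at an unadjusted p under 0.05 (edgeR; 22.0%, beside 12.3% of all genes), 0 passed an adjusted p of 0.05, and their median log2 fold change was -0.055. Without replicate 1 the counts were 9 lower and 3 higher of 48, beside 3.76% lower and 5.47% higher of all genes. DESeq2 placed 3 of the 50 at an adjusted p under 0.05, beside 3% of all genes (328 of 10940).

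On the regulatory side, Srebf2, the cholesterol-side SREBP, had a log2 fold change of -0.31 ± 0.08 (adjusted p = 0.161) and Insig1, which retains SREBP in the endoplasmic reticulum and is itself an SREBP target, -0.36 ± 0.07 (adjusted p = 0.102). The SREBP escort Scap was at 0.09 ± 0.07. The oxysterol receptors that induce Srebf1 were at 0.45 ± 0.11 for Nr1h3 (LXR alpha, adjusted p = 0.171) and 0.04 ± 0.07 for Nr1h2 (LXR beta).

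On the supply side, Idh1, a cytosolic source of NADPH, had a log2 fold change of -0.40 ± 0.07 (adjusted p = 0.072), Pgd of the pentose phosphate pathway -0.27 ± 0.09, and the citrate carrier Slc25a1 -0.18 ± 0.06. Hsd17b12, the ketoacyl-CoA reductase that works with the elongases, was at -0.28 ± 0.07 and the cytochrome Cyb5b at -0.26 ± 0.07. Dbi, the acyl-CoA binding protein, was at -0.23 ± 0.08. Above 0 were Hacd4 of the elongation dehydratase family at 0.45 ± 0.12 and Gpat3, a glycerol phosphate acyltransferase of the endoplasmic reticulum, at 0.95 ± 0.27 (adjusted p = 0.215).

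Beside them, the 20 enzymes of cholesterol synthesis had a median log2 fold change of -0.453. Of these, 19 were below 0 and 14 were lower at an unadjusted p under 0.05 (70.0%, beside 5.04% of all genes). At an adjusted p under 0.05, 4 passed (edgeR), beside 62 of all genes (0.468%). Without replicate 1, 3 or 5 in turn, 0 passed, beside 11, 3 and 4 of all genes. Without replicate 2, 2 passed, beside 167 of all genes. The fatty acid genes had 4 of 27 lower and 3 higher at an unadjusted p under 0.05, and the difference between the lists was not tested. Without replicate 1 the cholesterol enzymes gave 13 of 20 lower at an unadjusted p under 0.05 and the fatty acid genes 4 of 27, beside 3.76% of all genes.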

How the data were processed

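The data are single-end RNA-seq of polyadenylated pMac RNA, 4 libraries per genotype. Per the labels and the study's methods, the authors trimmed reads with Cutadapt, aligned them with STAR 2.5.2a and estimated abundance with RSEM 1.3.0 against Ensembl GRCm38. The strand setting was not given in the sources used here. The deposited files hold RSEM expected counts and TPM per gene. RSEM divides reads that match several genes, so 27.88 to 29.86% of the genes above 0 in a library had an expected count that was not whole.

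Gene symbols and coordinates came from a GRCm38 annotation, which matched 48435 of 48795 identifiers. Expected counts were rounded, scaled by TMM and tested with edgeR 4.0.16 (R 4.3.3, quasi-likelihood test, Benjamini-Hochberg), with genotype and replicate number as terms, over 13253 genes with 10 or more counts in at least 4 libraries. Normalized counts are scaled to the mean library size of 15367463, and standard errors were taken from the log2 fold change and its F statistic. The totals of 13698864 to 19059432 counts set the counting precision. Libraries differed beyond sampling noise, with a chi-square per degree of freedom of at least 14 over the 28 pairs, and counted as separate replicates.

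The pairing came from the numbers in the labels, and deviations from the group mean of same-numbered libraries correlated at 0.478, 0.385, 0.497 and 0.211 for replicates 1, 2, 3 and 5. For replicate 5 a library of another number reached 0.219. Whether a shared number marks a litter or day was not given.

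Members and lists were chosen with earlier results of these data known. Values in every library are given for members with an unadjusted p under 0.05, the 5 of highest mean TPM, and Srebf1, Fasn and Scd1. Other pathway genes are named at an unadjusted p under 0.05, together with Srebf2, Scap, Insig1, Nr1h2 and Nr1h3. Alternatives were DESeq2 1.42.0, limma 3.58.1 on log2(TPM + 1), other scalings, filters and thresholds, a bias-adjusted fit, no replicate block, each replicate left out, and, chosen after seeing the data, the B cell marker sum as a covariate. The fits were tested on simulated data. A marker gene on the lists is not reported here and was left out of the sums.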

Additional observations from a re-analysis of the deposited data

How the results depend on the processing

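No member passed the study's thresholds in the fit reported. Fads1 alone, 1 member, passed them with DESeq2 and with no filter on counts, and passed the looser rule of an adjusted p under 0.05 with a fold change above 1.5. The same 3 alternatives moved the cholesterol enzymes from 0 calls to 4, 4 and 2, and all genes from 5 to 112, 236 and 53. With limma on log2(TPM + 1) all genes gave 3 calls. Leaving out 1 replicate gave 3 to 24 calls over all genes.

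Without the replicate block 3 genes were called over all genes, 0 of 27 members reached an unadjusted p under 0.05 (2.83% of all genes did), and the pathway and cholesterol lists gave 2 and 1 (edgeR). Fads1 was called at an adjusted p under 0.05 with DESeq2 (4.97e-05) and lost the call with limma (0.158). Adjusted p-values of Fasn and Acsl1 went below 0.05 with no filter on counts (0.0326 and 0.0222) and without replicate 2 (0.0426 and 0.0430). The log2 fold change of Srebf1 was -0.02 without replicate 3, beside 0.02. Over 14 named members and 13 alternatives each, 172 of 182 values kept their direction and their side of the adjusted p of 0.05. Only Fads1 was under 0.05 in the fit reported, so the other members had no call to lose. The 5 values that lost a call were all of Fads1, so the pooled count does not measure how stable that call was. The median log2 fold change of the members was 0.02 with limma, beside -0.035.

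Acacb, Elovl3, Elovl6, Elovl7 and Fads2 were under the count filter and were not tested.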
